A study of Mus musculus with 12 samples.

Results

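The genes of mouse chromosome 8 are described here as one set across 12 Affymetrix gene arrays of R1 mouse embryonic stem cells (ESCs) with and without knockdown of the gene for BAF60a (Smarcd1), part of the SWI/SNF remodellers of chromatin. A probe set entered when it carried exactly 1 gene symbol and that gene lay on chromosome 8 in the gene table of the GRCm38.p6 assembly, with the brightest probe set standing for a gene that had several. A gene was kept when it lay above the 40th percentile of all named genes on at least 2 arrays. Of 955 named genes on the chromosome, 706 were kept (73.9%, against 65.1% of all 19938 named genes, which left 12988 genes tested in all). The other 249 did not pass, and a gene could pass through the group in which it was high, so the members are not all genes of the chromosome. Of the 706, 594 lay above the threshold on all 12 arrays and 112 on some of them, 13 of those only on scrambled arrays and 7 only on arrays labelled knockdown. The threshold was a log2 level of 4.46 to 4.63 depending on the array. Npy1r and Has3 lay just inside it, with their second highest array 0.006 and 0.008 above it, and Rab3a and Pcp2 lay just outside, 0.02 and 0.021 below it. The chromosome was selected on the measured difference between knockdown and scrambled arrays, so every value of that difference below is a description with no test.

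Mouse chromosome 8 carries genes of every kind, among them the naive pluripotency genes Zfp42 (Rex1) and Klf2, E-cadherin (Cdh1), the type IV collagen pair Col4a1 and Col4a2 of basement membranes, the metallothioneins Mt1 and Mt2, and many housekeeping genes of replication, translation and protein turnover. Cultured mouse ESCs are known to change chromosome number, and gain of chromosome 8 is a recurrent change in such cultures; when a whole chromosome is gained or lost, the RNA of its genes tends to move together and most clearly for genes that are expressed in every cell. DNA copy number was not measured in these samples, and its part in any value below was not tested.

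The 5 groups were 2 arrays of undifferentiated ESCs infected with a scrambled control, 2 of the Smarcd1 knockdown line KD1, 2 of the knockdown line KD2, 2 of scrambled cells differentiated for 4 days with 1 µM retinoic acid in the absence of leukemia inhibitory factor, and 4 of KD1 cells differentiated in the same way. The knockdown lines and controls are described as clones, so a group may stand for 1 clone, and scrambled cells are a control infection rather than uninfected cells. All cells had been grown on mitomycin-treated mouse embryonic fibroblasts, whose RNA can be part of each sample. Arrays of 1 group are given as biological replicates without saying whether they came from separate cultures or clones, so every error and p-value rests on the spread among arrays, which may be partly technical.

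Smarcd1, which lies on another chromosome, read 8.64 to 8.84 (log2 level) on the 4 scrambled arrays, 7.75 and 7.78 on the KD1 ESC arrays, and 6.36 to 6.61 on the differentiated KD1 arrays. It read 7.16 on KD2 replicate 2 and 8.56 on the array labelled KD2 replicate 1, which goes against that label, and is not shown by this gene to carry the knockdown. KD2 values are therefore given by array, first the array labelled KD2 replicate 1 and then KD2 replicate 2, and a mean or call of KD2 rests on both unless stated. The summed level of 12 ESC markers, on the log2 scale, lay between 14.16 and 14.65 in undifferentiated and between 10.67 and 11.26 in differentiated samples. Among them Klf4 did not follow the sum in differentiated KD1 cells, where it read 8.15 to 8.7. It read 9.08 to 9.31 in KD1 ESCs, 6.88 to 8.24 in scrambled ESCs and 5.35 to 5.47 in differentiated scrambled cells. Of 14 feeder fibroblast markers all were on the array and 13 were tested; their summed level was 12.56 to 12.58 in scrambled ESCs, 12.25 to 12.47 in KD1 ESCs, 11.84 to 12.28 in KD2 ESCs, 13.38 to 13.72 in differentiated scrambled cells and 12.41 to 12.92 in differentiated KD1 cells. Of 12 extraembryonic endoderm markers all were on the array and 11 were tested; their summed level was 14.34 to 14.66 in differentiated KD1 against 12.09 to 12.26 in differentiated scrambled samples, and in ESCs it was 10.49 to 10.69 in scrambled, 11.12 to 11.37 in KD1 and 10.11 to 10.67 in KD2 samples.

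3 neighbouring genes, Triml1, Triml2 and Zfp42, follow each other at positions 164 to 166 of the 706 members and were all low after differentiation of scrambled cells, as described below, so the sequence before each start is shown. The windows are the 250 bases before the RefSeq gene start on GRCm38.p6, 5′ to 3′ on the strand of the gene: Triml1 at chr8:43141487-43141736 (minus strand), Triml2 at chr8:43180286-43180535 (plus strand) and Zfp42 at chr8:43307010-43307259 (minus strand). Capitals mark the octamer ATTTGCAT, the site class that Oct4 and other POU factors bind, and the GC box GGGCGG, which Sp1 family factors bind, both searched on both strands.
Triml1: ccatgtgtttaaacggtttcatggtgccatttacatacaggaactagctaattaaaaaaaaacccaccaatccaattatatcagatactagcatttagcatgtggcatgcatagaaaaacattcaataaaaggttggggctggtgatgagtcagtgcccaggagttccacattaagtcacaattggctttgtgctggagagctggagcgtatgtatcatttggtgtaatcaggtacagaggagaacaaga
Triml2: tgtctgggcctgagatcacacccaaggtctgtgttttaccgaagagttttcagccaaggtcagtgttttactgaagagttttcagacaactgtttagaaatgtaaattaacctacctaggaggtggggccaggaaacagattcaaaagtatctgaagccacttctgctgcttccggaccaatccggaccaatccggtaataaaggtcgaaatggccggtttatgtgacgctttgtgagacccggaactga
Zfp42: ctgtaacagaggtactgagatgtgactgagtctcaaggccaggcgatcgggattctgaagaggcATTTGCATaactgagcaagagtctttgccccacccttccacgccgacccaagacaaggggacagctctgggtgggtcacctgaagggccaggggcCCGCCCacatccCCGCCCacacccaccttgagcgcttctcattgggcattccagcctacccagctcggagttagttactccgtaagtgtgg
The window of Zfp42 held 1 octamer and 2 GC boxes, and neither word stood in the windows of Triml1 and Triml2. Over all 32851 RefSeq windows of this length, 1.6% held the octamer and 32.7% a GC box. A match is a description of the letters, not of binding. Of the 706 members, 483 had an entry in the promoter table.

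The median of the chromosome 8 members was lower on all 8 arrays labelled knockdown, the array labelled KD2 replicate 1 among them. The first genes in order did not share this, as given below. For each array, the difference of each member from the scrambled mean of the same state was taken, the median over all tested genes of that array was subtracted, and the median over the 706 members was read as the shift, in log2 units. The shift was -0.31 and -0.29 on the KD1 ESC arrays (mean -0.30 ± 0.010, SD, n = 2), -0.32 on the array labelled KD2 replicate 1 and -0.21 on KD2 replicate 2 (mean -0.27 ± 0.076, SD, n = 2), and -0.29, -0.28, -0.33 and -0.32 on the 4 differentiated KD1 arrays (mean -0.31 ± 0.023, SD, n = 4). The 4 scrambled arrays, which set the reference, lay between -0.01 and 0.01. On the linear scale the median member stood at a ratio of 0.796 to 0.862 of scrambled on the 8 arrays labelled knockdown. Between 69.4% and 77.8% of members lay below 0 on an array labelled knockdown, against 48.4% to 48.9% of the genes of all other chromosomes on the same array.

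Chromosome 8 had the lowest median of the 19 autosomes on all 8 arrays labelled knockdown. Leaving out chromosomes 1 and 14, the medians of the other 16 autosomes lay between -0.13 and 0.07. Chromosomes 14 and 1 stood apart in the other direction on some arrays: for chromosome 14 it was 0.34 on the array labelled KD2 replicate 1, 0.28 on KD2 replicate 2 and 0.36 and 0.35 on differentiated KD1 replicates 3 and 4. It was 0.05 and 0.02 on differentiated KD1 replicates 1 and 2, and in KD1 ESCs -0.01 and 0.02. Chromosome 1 was at 0.18 on the array labelled KD2 replicate 1 and at 0.19 and 0.23 on differentiated KD1 replicates 3 and 4. The chromosome 8 shift thus appeared on arrays with and without the shift of chromosome 14: on differentiated KD1 it was -0.29 and -0.28 without it and -0.33 and -0.32 with it. The X chromosome lay at -0.07 and -0.10 in KD1 ESCs, at -0.24 and -0.15 in KD2 ESCs and between 0.00 and 0.04 in differentiated KD1 cells.

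**Figure D1:**
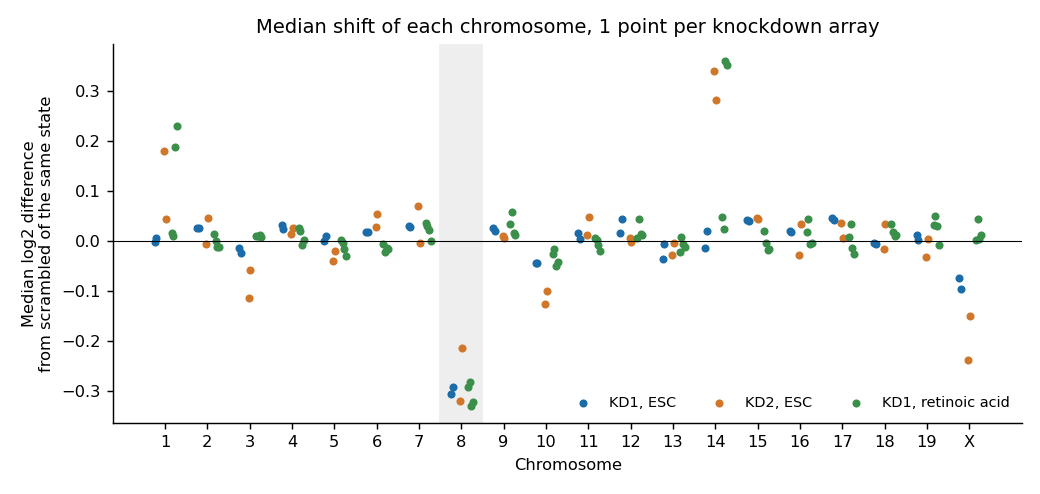
Median log2 difference from the scrambled mean of the same state (y axis) of the tested genes of each chromosome (x axis), centred on the median of all tested genes, with 1 point per array labelled knockdown, the array labelled KD2 replicate 1 included. Chromosome 8 (shaded) lies between -0.21 and -0.33 on all 8 arrays, and chromosome 14 lies at 0.28 to 0.36 on 4 of them.

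The same gap can be written as a deviation from the mean of the groups of a state, with equal weight per group and each array centred on its own median. The members' median was then 0.19 and 0.23 on the scrambled and -0.05 to -0.13 on the knockdown ESC arrays, and 0.16 and 0.15 on the scrambled and -0.14 to -0.19 on the knockdown differentiated arrays. Which of the groups departs from the parental R1 line could not be read, as no uninfected cells were on the arrays used here.

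The members' whole distribution lay lower. On KD1 ESC replicate 1, the 10th, 25th, 75th and 90th percentiles of the members were -0.77, -0.55, -0.05 and 0.19, where those of the genes of all other chromosomes were -0.41, -0.18, 0.19 and 0.39. On differentiated KD1 replicate 4 the percentiles were -0.97, -0.63, -0.00 and 0.28, against -0.60, -0.24, 0.29 and 0.69. The mean over members, at -0.28 to -0.34 on the 8 arrays labelled knockdown, lay near the median, except on KD2 replicate 2, where the mean was -0.33 and the median -0.21.

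By limma's moderated test on all 12988 genes, with Benjamini-Hochberg adjustment and an adjusted p under 0.05, 30 members were called lower and 5 higher in KD1 than in scrambled ESCs, where 1.41% of all tested genes were called lower and 0.909% higher. In KD2 ESCs 134 members were called lower and 11 higher, against a background of 7.15% and 2.88%; without the array labelled KD2 replicate 1 the counts were 185 lower and 44 higher, and without KD2 replicate 2 they were 309 and 31. In differentiated KD1 cells 204 were called lower and 30 higher than in differentiated scrambled cells, against 11.5% and 11.2% of all tested genes. These contrasts chose the chromosome, so the counts describe the size of the shift gene by gene and support nothing. The KD1 count rested on single arrays: it was 6 in all without scrambled ESC replicate 2, 1 without KD1 replicate 1 and 4 without KD1 replicate 2, 14 to 20 without any 1 of the differentiated arrays, and 184 without either of the KD2 arrays. The KD2 count was 95 in all without scrambled ESC replicate 1 and 37 without scrambled ESC replicate 2. The differentiated count of 234 became 120 without scrambled replicate 1, 121 without scrambled replicate 2 and 376 without either KD2 array.

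By the plainer criterion that no array of one group overlaps the other, 434 members were lower and 80 higher in KD1 ESCs (background 27.2% and 25.5%), 309 lower and 64 higher in KD2 ESCs (22.2% and 18.4%), and 397 lower and 71 higher in differentiated KD1 cells (27.5% and 26.5%).

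The shift was uneven along the chromosome: the first genes did not share it. Genes were put in their GRCm38.p6 order, which was used as an order only because the build behind the array files is not given in the sources used here, and cut into 10 bins of 70 or 71 genes. In the first bin, from the insulin receptor gene Insr to Alg11, the shift was 0.00 in KD1 ESCs (mean), 0.07 and 0.05 on the KD2 arrays and -0.03 in differentiated KD1 cells, and none of the 8 arrays lay outside -0.05 to 0.07. The next bin, from Nek3 to Dusp4, stood at -0.38 in KD1 ESCs and -0.36 after differentiation, with -0.52 and -0.28 on the KD2 arrays. The third, from Tnks to Tma16, was at -0.40 and -0.42, with -0.47 and -0.43 on the KD2 arrays. The bin from Tmem208 to Clec18a was as low, at -0.41 and -0.41, with -0.52 and -0.34 on the KD2 arrays. The bin from Fto to Lrrc29 (-0.23 and -0.27; KD2 arrays -0.11 and -0.19) and the bin from Pdpr to Zfp469 (-0.24 and -0.27; KD2 arrays -0.12 and -0.09) were less shifted, and both had a lower median level, 6.38 and 6.46, than the remaining bins, at 6.77 to 7.48.

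**Figure D2:**
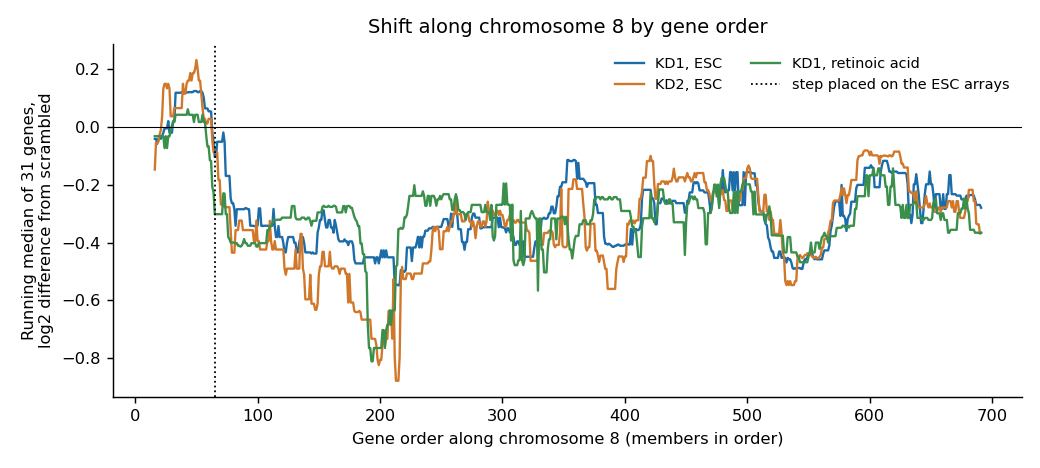
Running median over 31 neighbouring genes of the log2 difference from scrambled (y axis), against gene order along chromosome 8 (x axis, 706 members), as the mean over the arrays of each knockdown group. The first genes lie near or above 0, the lines fall near the dotted line after gene 65, and the lowest stretch lies near genes 193 to 215.

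A single step was placed by least absolute deviations on the mean of the 4 knockdown ESC arrays, a description added after the bins had been seen. It fell after 65 genes, between Angpt2 and Agpat5. Placed on each array alone it fell after 61 to 69 genes, between Cln8 and Atp7b, and on the mean of the 4 differentiated arrays after 62 genes. The 65 genes before it had a mean shift of 0.00 ± 0.026 in KD1 ESCs, 0.10 ± 0.036 in KD2 ESCs (SD, n = 2 each) and -0.01 ± 0.026 in differentiated KD1 cells (SD, n = 4). The 641 genes after it had -0.33 ± 0.027, -0.30 ± 0.082 and -0.33 ± 0.029. On single arrays the genes before the step lay between -0.05 and 0.13 and those after it between -0.24 and -0.36, with no overlap. Their median levels were alike, 6.93 before and 7.01 after. On the array labelled KD2 replicate 1 the medians were 0.08 and -0.36, and on KD2 replicate 2 they were 0.13 and -0.24.

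The calls divided in the same way. Of the 65 genes before the step, 0 were called lower and 3 higher in KD1 ESCs, 3 lower and 5 higher in KD2 ESCs (8 and 19 without the array labelled KD2 replicate 1), and 8 lower and 8 higher in differentiated KD1 cells. Of the 641 after it, 30, 131 and 196 were called lower and 2, 6 and 22 higher; in KD2 they were 177 lower and 25 higher without that array. In KD1 ESCs, KD2 ESCs and differentiated KD1 cells, 0.0%, 4.62% and 12.3% of the genes before the step were called lower. Called higher were 4.62%, 7.69% and 12.3%. After the step the shares were 4.68%, 20.4% and 30.6% lower and 0.312%, 0.936% and 3.43% higher. Over all tested genes they were 1.41%, 7.15% and 11.5% lower and 0.909%, 2.88% and 11.2% higher. After differentiation the genes before the step thus lay near the background. Since the step was placed on the ESC differences, these splits are descriptions.

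**Figure D3:**
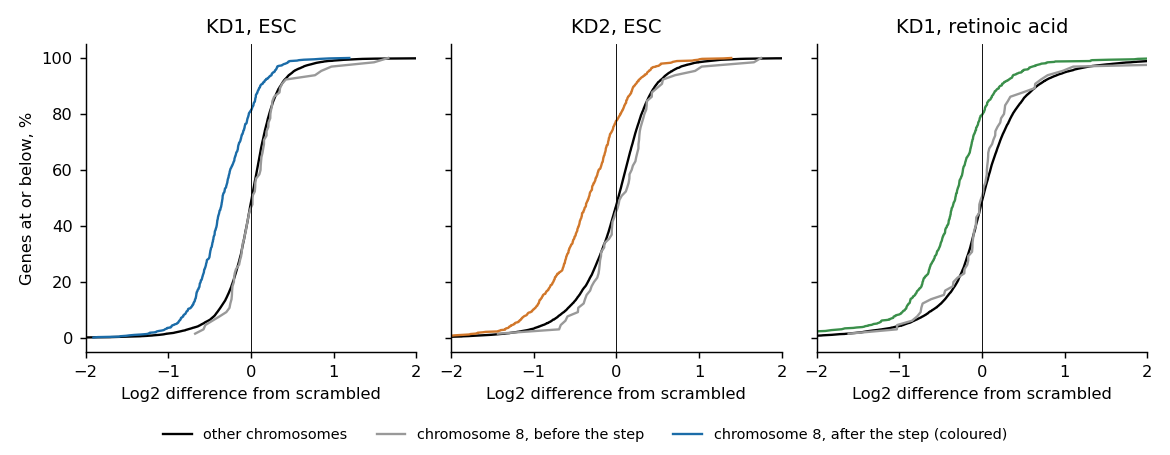
Share of genes at or below a given log2 difference from scrambled (x axis, mean over the arrays of a group; values beyond 2 on either side not drawn), for the genes of other chromosomes (black), the 65 chromosome 8 genes before the step (grey) and the 641 after it (coloured). The coloured curve lies to the left of the black one over most of its range in all 3 groups, and the grey curve lies close to the black one.

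Brighter genes shifted more. With the members cut into 4 bins by mean log2 level over all 12 arrays, the dimmest bin (3.35 to 5.61) had a mean shift of -0.07 in KD1 ESCs and -0.15 in differentiated KD1 cells. The second bin had -0.33 and -0.35, the third -0.39 and -0.38, and the brightest (8.17 to 11.27) -0.40 and -0.34. Genes of the other chromosomes in the same level ranges lay between -0.05 and 0.08, as means over the arrays of a group. They were not read array by array, so the values of single arrays below have no such background beside them. In KD1 ESCs the step came between the dimmest and the second bin on both arrays, from -0.10 to -0.33 and from -0.05 to -0.34. The array labelled KD2 replicate 1 had 0.09, -0.30, -0.45 and -0.59 from the dimmest to the brightest bin, while KD2 replicate 2 had -0.15, -0.21, -0.24 and -0.30. In differentiated KD1 cells the brightest bin was no lower than the third on any array. Among the genes after the step alone, the bins gave -0.08, -0.36, -0.43 and -0.42 in KD1 ESCs.

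The difference between the brightest and the dimmest bin depended on where genes were dropped. It was -0.33 in KD1 ESCs, -0.41 in KD2 ESCs and -0.18 in differentiated KD1 cells. With only genes above the 60th percentile kept it was -0.09 in KD1 ESCs and 0.03, the other direction, in differentiated KD1 cells. With the mean in place of the median over members it was -0.26 in KD1 ESCs and -0.03 in differentiated KD1 cells. How the compression of dim probe signals on arrays bears on this was not tested.

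**Figure D4:**
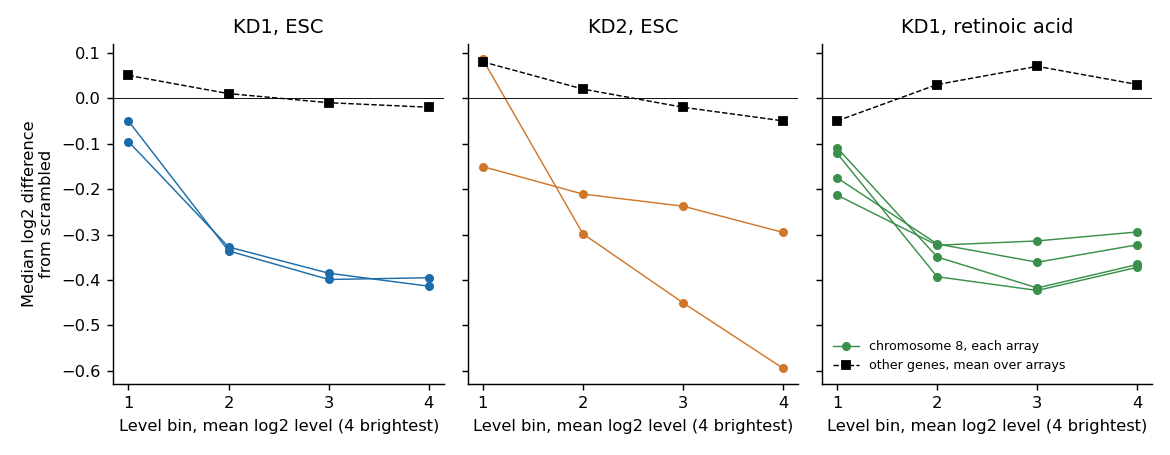
Median log2 difference from scrambled (y axis) in the 4 level bins of chromosome 8 members (x axis, bin 4 the brightest), with 1 line per array labelled knockdown, beside genes of other chromosomes in the same level ranges (black squares, mean over arrays). The dimmest bin of chromosome 8 lies between -0.21 and 0.09 and the others between -0.21 and -0.59.

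Some of the brightest members show the shift on single genes. Rpl13, a protein of the large ribosomal subunit, read 11.14 and 11.17 in scrambled ESCs, 10.76 and 10.66 in KD1, 10.14 and 11.05 in KD2, 11.01 and 11.00 in differentiated scrambled and 10.66, 10.71, 10.59 and 10.34 in differentiated KD1 cells. Every array labelled knockdown lay below the scrambled arrays of its state, and the KD2 arrays were far apart. Its log2 difference was -0.44 ± 0.25 in KD1 ESCs and -0.43 ± 0.21 in differentiated KD1 cells (SE of the limma fit, here and below). Abce1, a ribosome recycling factor, read 11.01 and 11.03 in scrambled ESCs, 10.51 and 10.52 in KD1, 10.48 and 10.79 in KD2, 11.19 and 10.97 in differentiated scrambled and 10.57, 10.48, 10.37 and 10.57 in differentiated KD1 cells. No array labelled knockdown overlapped the scrambled arrays of its state, with differences of -0.50 ± 0.16, -0.39 ± 0.16 and -0.58 ± 0.14. Sf3b3, a subunit of the splicing factor SF3B, differed by -0.26 ± 0.16 in KD1 ESCs, by -0.75 and -0.32 on the KD2 arrays, and by -0.78 ± 0.14 after differentiation. Slc25a4, the mitochondrial ADP/ATP carrier, was less even. It differed by -0.79 ± 0.40 in KD1 ESCs, by -1.94 and -0.12 on the KD2 arrays and by -0.22 ± 0.35, within its SE, in differentiated KD1 cells.

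Other bright members differed among themselves. Calr, the endoplasmic reticulum chaperone calreticulin, differed by -0.13 ± 0.24 in KD1 ESCs, by -0.37 and -1.12 on the KD2 arrays and by 0.35 ± 0.20 after differentiation. Lamp1, a lysosomal membrane protein that lies before the step, read 10.95 and 10.97 in scrambled ESCs, 10.98 and 11.17 in KD1, 10.68 and 10.00 in KD2, 10.12 and 10.21 in differentiated scrambled and 10.83, 10.93, 10.88 and 10.80 in differentiated KD1 cells. After differentiation it was thus higher in KD1 with no overlap, by 0.70 ± 0.17. Itgb1, the integrin beta 1 chain and the last of the members in order, was lower without overlap in every comparison and differed by -0.61 ± 0.28 in KD1 ESCs, by -0.74 and -1.90 on the KD2 arrays and by -0.28 ± 0.24 after differentiation.

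Among genes of chromatin and transcription, 36 of the 38 listed genes on the chromosome were members. Their median log2 change was -0.24 in KD1 ESCs and -0.58 in differentiated KD1 cells, beside -0.00 and -0.02 over all tested genes and -0.30 and -0.31 over all 706. On the KD2 arrays it was -0.26 and 0.03, beside -0.13 and 0.08 over all tested genes and -0.45 and -0.13 over all 706. None was called in KD1 ESCs, 2 were called lower in KD2 ESCs (Sin3b and Nfatc3; 4 lower and 3 higher without the array labelled KD2 replicate 1), and 18 were called lower and 2 higher after differentiation. The 18 include Foxc2, which entered only through the differentiated scrambled arrays, as described below. For this and the lists below, the share called after differentiation was 11.5% lower and 11.2% higher over all tested genes, and 28.9% and 4.25% over all members. In ESCs it was 4.25% lower in KD1 and 19.0% lower in KD2 over all members, against 1.41% and 7.15% of all tested genes. Brd7, the bromodomain subunit of the PBAF form of SWI/SNF, read 8.17 and 8.17 in scrambled ESCs, 7.41 and 7.47 in KD1, 7.05 and 8.01 in KD2, 9.30 and 9.03 in differentiated scrambled and 7.99, 8.05, 7.71 and 7.92 in differentiated KD1 cells. It was lower on every array labelled knockdown, by -0.73 ± 0.26, -0.64 ± 0.26 and -1.25 ± 0.22. Smarca5, the ATPase of ISWI remodellers, differed by -0.32 ± 0.22 in KD1 ESCs, -0.72 and -0.07 on the KD2 arrays and -0.88 ± 0.19 in differentiated KD1 cells. Sin3b, a scaffold of histone deacetylase complexes, differed by -0.85 ± 0.20, by -1.23 and -0.72 on the KD2 arrays, and by -0.57 ± 0.18 after differentiation.

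The naive pluripotency gene Zfp42 read 10.37 and 10.01 in scrambled ESCs, 10.61 and 10.59 in KD1 and 10.39 and 10.71 in KD2, so that all ESC arrays labelled knockdown lay above the scrambled ones. Klf2, a Krüppel-like factor of the same state, differed by 0.14 ± 0.30 in KD1 ESCs and by -0.84 and 0.21 on the KD2 arrays, and both lines overlapped scrambled. Sall1, a zinc finger factor expressed in ESCs, differed by 0.05 ± 0.26 in KD1 ESCs and by 0.18 and 0.38 on the KD2 arrays.

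All 19 listed genes of replication and repair on the chromosome were members. The list holds Spata33, a spermatogenesis-associated gene rather than one of replication. Lower with no overlap were 16 in KD1 ESCs, 7 in KD2 ESCs and 17 in differentiated KD1 cells, and 1 was higher in KD1 ESCs. Over all members the shares lower by this criterion were 61.5%, 43.8% and 56.2%, and over all tested genes 27.2%, 22.2% and 27.5%. The list's medians were -0.43 in KD1 ESCs, -0.67 and 0.01 on the KD2 arrays and -0.54 after differentiation. Called lower were 0 in KD1 ESCs, 2 in KD2 ESCs (Cdt1 and Orc6) and 7 after differentiation, and none was called higher; without the array labelled KD2 replicate 1, KD2 had 1 lower and 1 higher. Mcm5, of the replicative helicase, read 10.23 and 10.20 in scrambled ESCs, 9.78 and 9.67 in KD1, 9.34 and 10.11 in KD2, 9.74 and 9.58 in differentiated scrambled and 8.96, 8.97, 8.92 and 8.96 in differentiated KD1 cells. The groups did not overlap in either state. Cdt1, which loads that helicase at origins, differed by -0.70 ± 0.25 in KD1 ESCs, by -1.38 and -0.39 on the KD2 arrays and by -0.80 ± 0.22 after differentiation. Neil3, a DNA glycosylase, stood out after differentiation at -1.91 ± 0.24, and Hmgb2, a chromatin protein of dividing cells also in the chromatin list, at -1.12 ± 0.16.

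All 16 listed genes of translation and the ribosome that lie on the chromosome were members, and their medians were -0.46 in KD1 ESCs, -0.96 and -0.11 on the KD2 arrays and -0.41 after differentiation. Lower with no overlap were 14 in KD1 ESCs, 9 in KD2 ESCs and 14 in differentiated KD1 cells, and none was higher, beside the shares given for the replication list; 2 were called after differentiation, Abce1 and Upf1, the helicase of nonsense-mediated decay, at -0.64 ± 0.14. Proteasome, ubiquitin and folding genes had medians of -0.57 in KD1 ESCs, -0.97 and -0.41 on the KD2 arrays and -0.17 after differentiation, with 2 of 21 members called lower in KD1 ESCs, 6 in KD2 ESCs (9 without the array labelled KD2 replicate 1) and 7 after differentiation, where 1 was called higher. The 2 in KD1 ESCs were Psmb10, an immunoproteasome subunit (-1.02 ± 0.22), and Tpm4, a tropomyosin of the actin cytoskeleton rather than of protein turnover (-0.88 ± 0.18). The list also holds Hook2 and Hook3, and Hook3 is a microtubule adaptor. Tpm4 and Hook3 were both among the 6 called lower in KD2 ESCs. The medians and counts of this list are therefore not those of protein turnover genes alone. Psmb10 lost its call in 9 and Tpm4 in 8 of the 12 fits that left out 1 array, and of the 12 named members called in KD1 ESCs 11 lost theirs in at least 1 such fit. Genes of mitochondria and redox had medians of -0.50 in KD1 ESCs, -1.04 and 0.00 on the KD2 arrays and -0.31 after differentiation. Of 20 members, 18 were lower and 1 higher with no overlap in KD1 ESCs, 7 lower and 2 higher in KD2 ESCs, and 11 lower and 2 higher after differentiation, and 0, 2 and 3 were called lower.

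Members of the adhesion and matrix list spread widely. Of 20, 1 was called lower and 1 higher in KD1 ESCs, 8 lower in KD2 ESCs (10 without the array labelled KD2 replicate 1), and 8 lower and 3 higher in differentiated KD1 cells, beside 28.9% lower and 4.25% higher over all members. Cdh1, E-cadherin, read 11.68 and 11.87 in scrambled ESCs, 11.25 and 11.36 in KD1, 10.92 and 9.99 in KD2, 9.57 and 9.52 in differentiated scrambled and 9.61, 9.58, 8.89 and 9.10 in differentiated KD1 cells. It was lower without overlap in both ESC lines, by -0.47 ± 0.30 and -1.32 ± 0.30, and overlapped after differentiation. Cdh3, P-cadherin, its neighbour in gene order, differed by -0.85 ± 0.36, by -1.09 and -2.12 on the KD2 arrays and by -2.48 ± 0.31 after differentiation.

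Col4a1 and Col4a2 lie before the step, at positions 28 and 29. Col4a1 read 6.38 and 6.53 in scrambled ESCs, 7.58 and 7.27 in KD1, 7.14 and 6.24 in KD2, 7.97 and 7.81 in differentiated scrambled and 11.36, 11.59, 11.75 and 11.53 in differentiated KD1 cells. Col4a2 read 6.20 and 6.17, 7.10 and 6.96, 6.29 and 5.92, 7.92 and 7.84, and 11.11, 11.34, 11.42 and 11.20 in the same order. Both were higher in KD1 without overlap in either state, Col4a1 by 0.97 ± 0.25 in ESCs and 3.67 ± 0.22 after differentiation, and Col4a2 by 0.85 ± 0.17 and 3.39 ± 0.15. They are among the 12 endoderm markers and so part of the summed level given above, which was highest in differentiated KD1 cells. In ESCs it was higher in KD1 (11.12 to 11.37) than in scrambled samples (10.49 to 10.69). Of these markers Afp and Ttr overlapped between differentiated KD1 and differentiated scrambled cells, and the others were higher in KD1. In ESCs Sparc, Foxa2 and Ttr overlapped between KD1 and scrambled, and Afp read 3.48 to 3.54 against 3.39 to 3.48. The remaining markers were higher in KD1 ESCs. The part of an endoderm-like makeup of these cultures in the difference was not tested.

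Mmp2, a matrix metalloprotease, read 9.80 and 10.50 in differentiated scrambled and 7.51, 6.89, 6.53 and 7.08 in differentiated KD1 cells, a difference of -3.15 ± 0.30. Cdh11, a mesenchymal cadherin, differed by -2.33 ± 0.32. Both are among the 14 feeder fibroblast markers and part of their summed level, which was lower in differentiated KD1 than in differentiated scrambled cells. Of these markers Thy1, Tagln, Lox, Lum and S100a4 overlapped between those groups, and the others were lower in differentiated KD1 cells. Tagln, for one, read 10.52 to 11.04 in differentiated KD1 against 10.86 to 10.89 in differentiated scrambled cells. The part of feeder cells in these values was not tested. In bulk RNA, fewer cells of a type and less RNA per cell cannot be told apart.

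Foxc2, a forkhead factor of mesoderm, read 7.04 and 7.15 in differentiated scrambled and 3.74, 3.77, 3.76 and 3.63 in differentiated KD1 cells, near its level of 3.30 to 3.56 in all ESC arrays. It lay above the detection filter on the 2 differentiated scrambled arrays alone and so entered only through the group in which it was high; its values are given with no test. Crispld2, a secreted protein, differed by -3.62 ± 0.25.

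Of 21 members among signalling genes, 9 were called lower and 1 higher in differentiated KD1 cells, beside 28.9% and 4.25% over all members. Sfrp1, a secreted inhibitor of Wnt signalling, had the largest difference of any member between differentiated KD1 and scrambled cells: it read 7.65 and 7.53 in scrambled ESCs, 7.92 and 7.93 in KD1, 8.94 and 8.26 in KD2, 9.34 and 9.87 in differentiated scrambled and 5.68, 5.75, 5.48 and 5.43 in differentiated KD1 cells. It was therefore above scrambled in ESCs, by 0.33 ± 0.24 and 1.01 ± 0.24, and below it after differentiation, by -4.02 ± 0.20. Nkd1, an intracellular antagonist of the same pathway, differed by 0.07 ± 0.20 in KD1 ESCs and -2.85 ± 0.17 after differentiation. Fgfr1, an FGF receptor, differed by -0.29 ± 0.28 and -1.69 ± 0.24. Hhip, a decoy receptor for Hedgehog ligands, differed by -2.29 ± 0.41 after differentiation.

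Among the members with the largest differences in ESCs, the values of both lines are given side by side, since they share the 2 scrambled arrays. Rnf170, a ubiquitin ligase of the endoplasmic reticulum, read 7.48 and 7.39 in scrambled ESCs, 5.79 and 5.88 in KD1, 5.43 and 5.30 in KD2, 7.51 and 7.29 in differentiated scrambled and 6.13, 6.46, 6.41 and 6.46 in differentiated KD1 cells. All arrays labelled knockdown were lower, by -1.60 ± 0.17, -2.07 ± 0.17 and -1.03 ± 0.14. Rnf122, another ring finger protein, differed by -1.91 ± 0.35, -2.31 ± 0.35 and -2.16 ± 0.30, but its scrambled ESC arrays were 1 low and 1 high, at 7.44 and 8.92; the KD2 arrays differed by -2.29 and -2.34. Slc5a5, the sodium iodide symporter, differed by -1.51 ± 0.20 in KD1 ESCs, by -1.88 and -2.09 on the KD2 arrays and by -0.10 ± 0.17 after differentiation, where the arrays overlapped. Kcnk1, a potassium channel, read 9.97 and 11.15 in scrambled ESCs against 8.55 and 8.85 in KD1 and 7.46 and 8.15 in KD2.

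Higher in ESCs were Atp11a, a phospholipid flippase, which read 6.42 and 6.75 in scrambled, 8.11 and 8.37 in KD1 and 8.91 and 7.70 in KD2 ESCs, and Kbtbd11, a Kelch domain protein, at 5.70 and 5.40, 7.49 and 6.58, and 7.35 and 7.02. Both lie before the step. Gabarapl2, an autophagy protein of the Atg8 family that lies after it, read 8.93 and 8.61, 10.08 and 9.83, and 9.50 and 9.96. The differences in KD1 were 1.66 ± 0.31, 1.48 ± 0.28 and 1.19 ± 0.20.

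**Figure D5:**
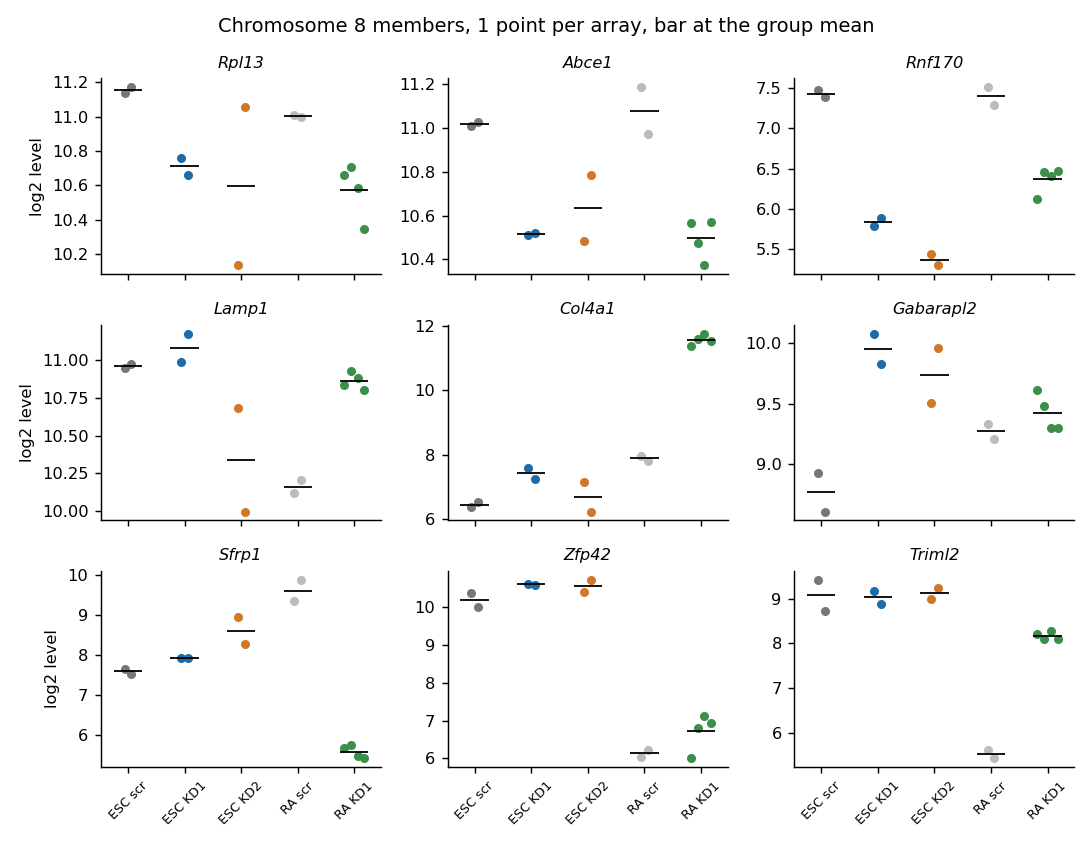
Log2 level (y axis, its own range in each panel) of 9 chromosome 8 members in the 5 groups (x axis; scr, scrambled; RA, 4 days of retinoic acid), with 1 point per array and a bar at the group mean. Abce1 and Rnf170 are lower on every array labelled knockdown in either state, Col4a1 is highest and Sfrp1 lowest in differentiated KD1 cells, and Zfp42 and Triml2 are highest in ESCs.

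The lowest stretch of the running median lay at the end of the third bin and the start of the fourth. It reached -0.55 in KD1 ESCs at Psd3, -0.88 in KD2 ESCs at Npy1r (-0.87 at Hand2 on the array labelled KD2 replicate 1 and -0.99 at Npy1r on KD2 replicate 2) and -0.81 in differentiated KD1 cells at Hpgd. Genes there included Cpe, a prohormone-processing carboxypeptidase, with differences of -1.41 ± 0.34 in KD1 ESCs, -2.06 and -1.40 on the KD2 arrays and -2.36 ± 0.30 after differentiation. Msmo1, a sterol oxidase of cholesterol synthesis, had -0.32 ± 0.22, KD2 values of -1.0 and -1.34, and -2.16 ± 0.19. Tenm3, a teneurin, had -0.48 ± 0.31, KD2 values of -0.32 and -1.59, and -2.39 ± 0.27. Apela, a ligand of the apelin receptor, had opposite directions in the states: it read 9.14 and 8.68 in scrambled ESCs and 7.41 and 7.75 in KD1, but 6.64 and 5.90 in differentiated scrambled and 8.69, 8.16, 7.67 and 8.03 in differentiated KD1 cells.

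The differentiation comparisons, of scrambled cells and of KD1 cells, did not enter the choice of the chromosome and were tested. Of the members, 14 passed the detection filter only on ESC arrays and 16 only on differentiated arrays. For these the filter favoured a direction in advance, so any call of them below is not a test result. All tested genes, which give the background shares, passed the same filter. Between scrambled ESCs and differentiated scrambled cells, 179 members rose and 116 fell (limma, adjusted p under 0.05), where 22.4% of all tested genes rose and 16.7% fell. These are 25.4% and 16.4% of the members, near the background, and the median change was 0.09 over members and 0.06 over all tested genes. In KD1, 186 rose and 150 fell on differentiation, against 29.4% and 21.4% of all tested genes, with medians of 0.03 and 0.06. With every array centred on its median the counts were 154 rising and 152 falling in scrambled cells and 138 rising and 223 falling in KD1, so the split between directions depended on the scaling. The KD1 count of 336 was 218 without KD1 ESC replicate 2.

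Zfp42 fell on differentiation from 10.37 and 10.01 to 6.03 and 6.23 in scrambled cells and from 10.61 and 10.59 to 6.01, 6.80, 7.12 and 6.92 in KD1, by -4.06 ± 0.30 (limma adjusted p = 2.4e-06) and -3.89 ± 0.26 (adjusted p = 4.84e-07). Klf2 fell likewise, by -3.44 ± 0.30 (adjusted p = 7.2e-06) and -3.79 ± 0.26 (adjusted p = 5.62e-07). The neighbours of Zfp42 fell by less in KD1 than in scrambled cells; that difference of falls is also a difference between knockdown and scrambled arrays and is given with no test. Triml2, a tripartite motif family protein, read 9.42 and 8.73 in scrambled ESCs, 9.18 and 8.88 in KD1 ESCs, 5.61 and 5.43 in differentiated scrambled and 8.21, 8.09, 8.28 and 8.10 in differentiated KD1 cells. Its fall was -3.55 ± 0.22 in scrambled cells (limma adjusted p = 6.8e-07) and -0.85 ± 0.19 in KD1 (adjusted p = 0.00272), and the falls differed by 2.70 ± 0.29. Triml1 fell by -3.32 ± 0.27 and -1.56 ± 0.23 (limma adjusted p = 4.31e-06 and 0.000178), which differed by 1.76 ± 0.35. For Zfp42 the falls differed by 0.17 ± 0.40. Over all members the change on differentiation was called more positive in KD1 than in scrambled cells for 22 (3.12%) and more negative for 28 (3.97%), where 4.27% and 3.61% of all tested genes were so called; nothing is read from these counts, since the contrast holds the differences that chose the chromosome. The sequences of the 3 starts are printed above.

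The metallothioneins Mt2 and Mt1, adjacent at positions 439 and 440, bind zinc and other metals and both fell. Mt1 fell by -2.75 ± 0.39 in scrambled cells (limma adjusted p = 0.000198) and -1.41 ± 0.34 in KD1 (adjusted p = 0.00427), and Mt2 by -2.49 ± 0.38 (adjusted p = 0.000369) and -2.28 ± 0.33 (adjusted p = 0.00015).

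Among rising members, Plat, the tissue plasminogen activator, rose from 5.86 and 5.69 to 9.69 and 10.01 in scrambled cells and from 5.15 and 4.81 to 9.67, 9.76, 10.32 and 10.30 in KD1, by 4.08 ± 0.28 (limma adjusted p = 1.51e-06) and 5.03 ± 0.24 (adjusted p = 6.73e-08). Nrp1, a receptor for semaphorins and VEGF, rose by 3.68 ± 0.20 and 3.58 ± 0.17 (limma adjusted p = 3.31e-07 and 6.73e-08), and Adgra2, an adhesion G protein-coupled receptor, by 3.25 ± 0.22 and 3.88 ± 0.19 (adjusted p = 1.1e-06 and 6.73e-08). Crispld2 and Nkd1 rose in scrambled cells, by 3.53 ± 0.28 and 2.99 ± 0.20 (limma adjusted p = 4.31e-06 and 1.08e-06). In KD1 the differences were -0.05 ± 0.25 (adjusted p = 0.889) and 0.07 ± 0.17 (adjusted p = 0.743), and the changes differed by -3.57 ± 0.38 and -2.92 ± 0.26. For Foxc2, given with no test for the reason above, the differences were 3.67 ± 0.14 and 0.39 ± 0.12. Col4a1 and Col4a2 rose by 1.43 ± 0.25 and 1.69 ± 0.17 in scrambled cells and by 4.13 ± 0.22 and 4.24 ± 0.15 in KD1 (limma adjusted p = 0.000981, 1.9e-05, 1.05e-07 and 8.8e-09).

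By list, 17 of 36 chromatin and transcription members rose and 3 fell on differentiation of scrambled cells. Of all tested genes 22.4% rose and 16.7% fell. The 17 include Foxc2, which passed the detection filter only on the differentiated scrambled arrays, so its rise is not a test result. Of 20 adhesion and matrix members 9 rose and 1 fell, and of 19 replication and repair members 2 rose and 1 fell. Called in the replication list were Asf1b, Spata33, which is not a replication gene as given above, and Cdt1. They lost their calls in 10, 10 and 4 of the 12 fits that left out 1 array. Of 16 translation members limma called 0, where by the same threshold 25.4% of all members rose and 16.4% fell. An unadjusted p under 0.05, which was not counted for this list, was met by 356 of all members. In KD1 the numbers rising and falling were 13 and 7, 8 and 3, 2 and 4, and 0 and 1, where 29.4% and 21.4% of all tested genes did.

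Between the lines, KD2 against KD1 in ESCs, limma called 1 member higher and 17 lower in KD2. These are 0.142% and 2.41% of the members, where 0.508% and 2.19% of all tested genes were so called. This contrast sets apart the differences from scrambled that chose the chromosome, so its values are given with no test. The median difference was -0.01 over members and over all tested genes. The higher one was Nkx6-3, a homeobox factor, at 5.11 and 5.38 in KD1 and 6.18 and 6.09 in KD2 (0.89 ± 0.18). Its call was lost in 4 of the 12 fits that left out 1 array. The lower ones included Tbc1d9, a Rab GTPase-activating protein family member, at 8.01 and 8.47 in KD1 and 7.05 and 6.63 in KD2 (-1.40 ± 0.22). Another was Ifi30, a lysosomal thiol reductase, at 10.67 and 10.65 against 9.54 and 9.64 (-1.07 ± 0.15). All 9 members named by rule in this comparison lost their call when 1 array was left out: Tbc1d9 without KD1 replicate 2, and the others, Nkx6-3 and Ifi30 among them, without either of the KD1 arrays. The count of 18 became 245 without the array labelled KD2 replicate 1, 121 without KD2 replicate 2, 1 without KD1 replicate 1 and 0 without KD1 replicate 2.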

How the data were processed

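RNA of 12 samples was measured on Affymetrix mouse gene arrays. The deposited values are log2 expression summaries per probe set, which the authors made with RMA, per the submitters' processing notes; its settings and version were not stated. Of 35556 probe sets, 21789 had 1 gene symbol in the platform's gene table, 1621 had several and 12146 were not listed there. Chromosome and gene order came from the RefSeq table of GRCm38.p6, with 1 value per gene as described above. Array number limits the precision.

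Groups followed the sample titles. limma 3.58.1 (R 4.3.3) was fitted as group means over 12 arrays and 12988 genes (7 residual and 4.58 prior degrees of freedom), with Benjamini-Hochberg adjustment over all tested genes within each contrast. Medians and figures were made in Python 3.11.15. In simulated data all groups shared 1 mean per gene, and only the genes given a change differed in differentiated scrambled cells. The fit over 12988 genes recovered 41 of 100 genes given a log2 change of 1 and 2 of 100 given 0.5, with 2 false calls. Far fewer genes were changed there than were called in the real contrast, so this recovery does not carry over to it.

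The members, lists and tests were chosen with earlier results of these data known. Named genes were Smarcd1, the regulators (Zfp42, Klf2, Cdh1, Sall1, Smarca5, Brd7), the 10 brightest members and up to 4 per gene list and contrast. The 8 highest and 8 lowest per comparison among non-overlapping members were also named. For differentiation and for KD2 against KD1 these also had to pass an adjusted p of 0.05. Other genes mark positions, thresholds or neighbours and were chosen after their values were seen. Alternatives covered the filter, probe set rule, centring, cyclic loess, weights, trend, block, bins and each array left out.

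Same-numbered arrays of different groups were checked for pairing. Over 20 pairs, the correlation of their deviations from the group means ran from -0.183 to 0.243, and 3 were over 0.1. In a group of 2 arrays the deviations mirror each other, so pairs of such groups repeat 1 value. The highest, 0.243, was that of scrambled with KD1 ESCs. The check therefore cannot settle whether the numbers pair the samples.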

Additional observations from a re-analysis of the deposited data

Results flagged for a closer look

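In the group of 4 differentiated KD1 arrays, 123 values (the shift, its bins and the levels of the named genes) were checked for an array far from the other 3 by Dixon's ratio, which flags about 1 group in 20 by chance; 4 met it. Hook3, a microtubule adaptor, read 8.04 on replicate 2 and 7.73 to 7.75 on the others. Mcm5 read 8.92 on replicate 3 and 8.96 to 8.97 on the others, a gap of 0.04 between very close values. Rnf170 read 6.13 on replicate 1 against 6.41 to 6.46. Usp10, a deubiquitinase, read 8.66 on replicate 4 against 8.45 to 8.49. The shift of the chromosome and its bins did not meet the criterion.

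For 26 of 108 named members limma's interaction term set the difference between KD1 and scrambled after differentiation apart from that in ESCs. This contrast holds the differences that chose the chromosome and, in part, the named genes, so the values are descriptions with no test. Over all 706 members 3.12% were called more positive and 3.97% more negative, where 4.27% and 3.61% of all 12988 tested genes were. The difference was more positive after differentiation for Apela (3.20), Triml2 (2.70), Col4a1 (2.70), Col4a2 (2.55), Clgn (2.01), Triml1 (1.76), Dlc1 (1.57), Npy1r (1.51), Herpud1 (1.48), Slc5a5 (1.41), Isx (1.37) and Tpm4 (0.99), in log2 units. It was more negative for Sfrp1 (-4.36), Crispld2 (-3.57), Foxc2 (-3.28), Nkd1 (-2.92), Mmp2 (-2.25), Kbtbd11 (-2.23), Tenm3 (-1.92), Msmo1 (-1.84), Vegfc (-1.66), Cers4 (-1.64), Got1l1 (-1.41), Fgfr1 (-1.40), Tox3 (-1.19) and Gabarapl2 (-1.03). Foxc2, Npy1r and Isx passed the detection filter only through 1 group of arrays. For 14 of the 26 the value was no longer past the threshold when 1 of the 12 arrays was left out.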

How the results depend on the processing

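The shift kept its sign under all 37 alternatives tried, from -0.39 to -0.17. It was -0.21 in KD1 ESCs and in differentiated KD1 cells with the filter at the 20th percentile, -0.36 and -0.39 with the filter at the 60th, and -0.17 in KD1 ESCs, -0.17 in KD2 ESCs and -0.18 in differentiated KD1 cells with no filter, which adds dim genes. In KD1 ESCs, where the 2 arrays differ by little, it was -0.29 as a mean over members, -0.31 centred on autosomes other than 8 and 14, -0.28 by cyclic loess, and -0.33 to -0.28 with 1 array left out.

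The first bin minus the rest was 0.34, 0.36 and 0.30 in KD1 ESCs, KD2 ESCs and differentiated KD1 cells. It was 0.27 and 0.23 (KD1 ESCs and differentiated KD1 cells) with the filter at the 20th percentile, 0.42 and 0.38 at the 60th, 0.21, 0.26 and 0.20 (all 3 groups) with no filter, 0.38 and 0.39 with the mean over members, and 0.18, 0.15 and 0.12 with 5 bins, whose first bin reaches past the step. In KD1 ESCs it was 0.34 with the mean of probe sets, 0.31 by cyclic loess and 0.33 to 0.38 with an array left out. The brightest minus the dimmest level bin (-0.33 in KD1 ESCs and -0.18 in differentiated KD1 cells) was -0.44 and -0.33 with the filter at the 20th percentile, -0.45 and -0.35 with no filter, -0.09 and 0.03 at the 60th, and -0.26 and -0.03 with the mean over members; in KD1 ESCs it was -0.24 by cyclic loess and -0.35 with 10 bins. Apart from the filters and bins, which change the genes compared, the cause was not tested.

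Counts of called members were the least stable values. For KD1 ESCs, KD2 ESCs, differentiated KD1 cells and KD2 against KD1 they were 35, 145, 234 and 18. With array weights they were 193, 0, 381 and 0, as the KD2 arrays each got a weight of 0.137; with only the arrays compared, 0 for KD2, 362 for differentiated KD1 cells and 0 for KD2 against KD1, where unadjusted p-values under 0.05 in the fit of all arrays numbered 284 and 119 for the KD2 contrasts. KD2 against KD1 gave 5 with median centring and 6 by cyclic loess. Without both KD2 arrays, chosen after seeing the data, KD1 ESCs gave 184 and differentiated KD1 cells 376. With only differentiated KD1 replicates 1 and 2 the counts were 5, 123 and 2 (KD1 ESCs, differentiated KD1 cells, KD2 against KD1), and with only replicates 3 and 4 they were 6 and 3 (KD1 ESCs, KD2 against KD1), also chosen afterwards; these change the residual degrees of freedom of every contrast. Leaving out 1 array gave 1 to 184 for KD1 ESCs, 37 to 340 for KD2 ESCs, 120 to 376 for differentiated KD1 cells, 0 to 245 for KD2 against KD1 and 218 to 437 for the differentiation of KD1; the lone array left in a group is then assumed to vary like the other groups. Differentiation counts stayed within 1.5 times otherwise.

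Whether the numbers pair the samples was not settled. With the replicate number as a block, the counts were 3, 78, 106 and 0 for KD1 ESCs, KD2 ESCs, differentiated KD1 cells and KD2 against KD1. Over 226 results of named genes, 5370 alternatives left 4774 on the same side of the threshold, 525 no longer past it, 71 newly past it and none reversed.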
